A study of Mus musculus with 6 samples.

Results

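Endothelial cells take up fat from blood with a small set of proteins that act in sequence, and 8 genes encoding such proteins are described here: Gpihbp1, Lpl, Lipg, Cd36, Fabp4, Fabp5, Vldlr and Scarb1. They were chosen by name, with earlier results of these data known, and all 8 had a row in the count table of 23420 genes. RNA was sequenced from mouse embryos at embryonic day 12.5 that all carried Csf1r-iCre, a Cre recombinase under the control of the Csf1r promoter, and a Rosa26 tdTomato reporter (RosatdTomato) that fluoresces red once Cre has acted in a cell or its ancestor. Cells of whole embryos that were positive for PECAM1 and negative for CD45, CD11b and KIT were sorted into a tdTom+ group (3 libraries, reporter recombined) and a tdTom- group (3 libraries, same genotype, reporter silent). Csf1r is a gene of macrophages and their progenitors, so the reporter marks a history of the promoter's activity and not a cell type, and each fraction pools endothelium of the whole embryo.

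Triglyceride travels in blood inside lipoprotein particles and is cut by lipases bound to the capillary wall. GPIHBP1 carries lipoprotein lipase across the endothelial cell and holds it in the capillary lumen, the scavenger receptor CD36 helps the released fatty acids into the cell, and FABP4 and FABP5 carry them through the cytoplasm. In adult mice this route is best known from capillaries of heart, skeletal muscle and fat. VLDLR and SR-BI (encoded by Scarb1) instead bind whole lipoprotein particles.

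The total count per library was between 8919887 and 11767956, and 13142 genes were abundant enough to test. Counts are reads of amplified cDNA, so counting errors understate the error of molecules, and where a group is higher in a bulk library, more cells of one type and more RNA per cell cannot be told apart. Nothing in the labels says that a number names an embryo, and p-values measure the spread between these libraries. The fractions were compared on 10 core endothelial genes, among them Pecam1, a gene of the sort. Their summed level was 7570, 8080 and 7670 CPM (counts scaled to a fixed library total) in tdTom+ and 7610, 7860 and 7710 CPM in tdTom- libraries, and 0 of 10 passed the test. Similar levels do not show that either fraction held only endothelium. Among the genes used for the sort, Pecam1 had between 8224 and 10052 counts in tdTom+ libraries, against 8577 to 10514 in tdTom- libraries, and Kit had 890 to 1023 in tdTom+ and 1108 to 1435 in tdTom- libraries. Ptprc (CD45) had at most 4 counts in tdTom+ and 22 in tdTom- libraries, and Itgam (CD11b) at most 6 in tdTom+ and 12 in tdTom- libraries. Kit transcripts were thus present in both fractions in spite of the gate against the protein.

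The genes for intracellular fatty acid carriers and for the fatty acid receptor were higher in tdTom+ cells, while the genes for the lipase axis and the lipoprotein receptors did not pass the test. Of the 7 members tested, 3 rose (Fabp4, Fabp5 and Cd36), 0 fell and 4 did not pass (edgeR's quasi-likelihood test, with p adjusted by Benjamini-Hochberg over all tested genes and a threshold of 0.05). The rise was 1.96-fold for Fabp4, 1.70-fold for Fabp5 and 1.88-fold for Cd36. Among all 13142 tested genes, 1.58% were called, 0.769% higher and 0.814% lower. Since the members were chosen with earlier results of these data known, the contrast with these shares is only a description. The eighth member, Lipg, had too few counts to test. The same 3 members were the ones whose tdTom+ libraries all lay above all tdTom- libraries, which was so for 7.88% of all tested genes. Another 9.35% were apart in the other direction, 17.2% in all, and no member was among those.

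**Figure D1:**
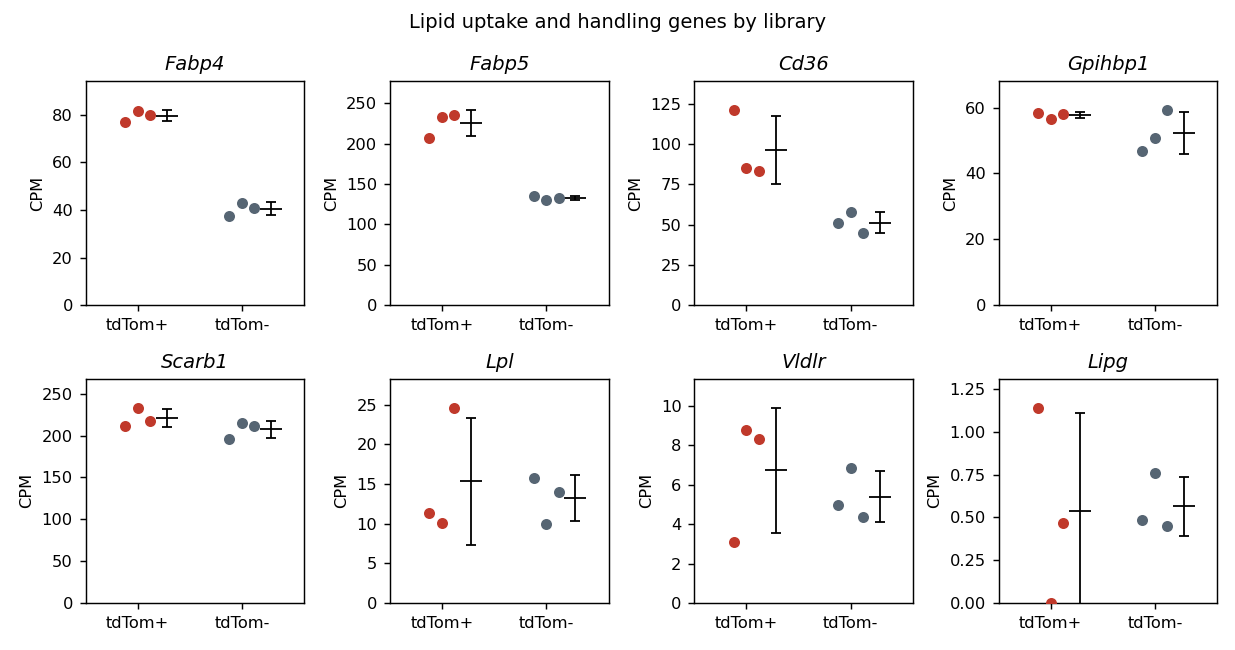
CPM of each of the 8 genes in every library (points), with tdTom+ left of tdTom- and the mean ± SD of 3 libraries beside each group. Fabp4, Fabp5 and Cd36 show tdTom+ points wholly above the tdTom- points, and in the other 5 panels the groups overlap.

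Fabp4 and Fabp5 encode small cytoplasmic proteins that bind long-chain fatty acids. Both genes lie on mouse chromosome 3 (GRCm38, positions 10204088 to 10208576 for Fabp4 and 10012548 to 10016607 for Fabp5). To show how far the transcripts of these relatives differ, 120 aligned coding bases are printed for each, 5′ to 3′, from the GENCODE M21 transcripts, with capitals where the pair differ. The stretch starts at coding base 4 of Fabp4 and at coding base 10 of Fabp5.
Fabp4: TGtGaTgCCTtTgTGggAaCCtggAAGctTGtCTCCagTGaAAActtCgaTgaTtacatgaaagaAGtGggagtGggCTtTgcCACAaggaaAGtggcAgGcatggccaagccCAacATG
Fabp5: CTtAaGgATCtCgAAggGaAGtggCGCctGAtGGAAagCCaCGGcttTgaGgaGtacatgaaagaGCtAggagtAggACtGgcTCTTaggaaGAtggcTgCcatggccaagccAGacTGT
They share 70 of these 120 bases, and 59.6% of the aligned coding sequence as a whole, whose length is 399 bases in Fabp4 and 408 in Fabp5. No run of 50 bases of the Fabp4 coding transcript occurred in a transcript of another gene. For Fabp5, 21.1% of such runs did, most often in the gene models Gm6166 and Gm14328, so that its counts depend on how reads with several matches were treated, which the sources used here do not give.

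Fabp4 had 77.1, 81.7 and 80.0 CPM in tdTom+ libraries, against 37.6, 42.9 and 41.0 CPM in tdTom- libraries. All tdTom+ values stood well above all tdTom- values, and both groups were tight. The mean was 79.6 ± 2.31 CPM in the tdTom+ fraction and 40.5 ± 2.67 CPM in the tdTom- fraction (SD, n = 3 each), a log2 fold change of 0.97 ± 0.12 (SE; adjusted p by edgeR = 0.00313, higher in 3 of 3 libraries).

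Fabp5 had 207, 233 and 236 CPM in tdTom+ libraries, against 135, 130 and 133 CPM in tdTom- libraries. The lowest tdTom+ library was again clear of the highest tdTom- library. The mean was 226 ± 15.8 CPM in the tdTom+ fraction and 133 ± 2.89 CPM in the tdTom- fraction (SD, n = 3 each). The log2 fold change was 0.77 ± 0.084 (SE; adjusted p by edgeR = 0.00139, higher in 3 of 3 libraries), and Fabp5 had the smallest p of the members, in place 22 among all tested genes, where Fabp4 was in place 30. The calls of Fabp4 and Fabp5 stood when any single library was left out (adjusted p of 0.00763 to 0.0288 for Fabp4 and 0.00414 to 0.0176 for Fabp5). Of their relatives, Fabp7 had 94, 87 and 97 counts in tdTom+ libraries, against 67, 84 and 44 counts in tdTom- libraries. Fabp3 was low and leaned the other way, with 18, 4 and 6 counts in tdTom+ and 22, 22 and 16 in tdTom- libraries.

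Cd36 encodes a membrane glycoprotein that takes up long-chain fatty acids and oxidised lipoproteins, and in mice it is made by capillary endothelium, macrophages and platelets, among other cells. The gene lies on chromosome 5 (17781690 to 17888801, minus strand). It had 121, 84.9 and 83.5 CPM in tdTom+ libraries, against 51.3, 57.6 and 45 CPM in tdTom- libraries. The groups did not overlap, and tdTom+ replicate 1 stood above the other tdTom+ libraries. The means were 96.5 ± 21.2 CPM in the tdTom+ fraction and 51.3 ± 6.28 CPM in the tdTom- fraction (SD, n = 3 each), and the log2 fold change was 0.91 ± 0.17 (SE; adjusted p by edgeR = 0.0236, higher in 3 of 3 libraries). The call ended without tdTom+ replicate 1 (log2 fold change 0.71, adjusted p = 0.0655), without tdTom- replicate 1 (adjusted p = 0.123), 2 (0.0645) or 3 (0.13). The direction stayed the same in each of these fits.

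Cd36 has several first exons, and 1 start was in the promoter sequences used here (RefSeq, GRCm38.p6). That window of 300 bases around the start is printed because Cd36 was the called member with such an entry, from the minus strand, 5′ to 3′, at chr5:17835847-17836146. Capitals mark a nuclear receptor half-site (AGGTCA, here on the other strand) and a CCAAT box.
Cd36 promoter: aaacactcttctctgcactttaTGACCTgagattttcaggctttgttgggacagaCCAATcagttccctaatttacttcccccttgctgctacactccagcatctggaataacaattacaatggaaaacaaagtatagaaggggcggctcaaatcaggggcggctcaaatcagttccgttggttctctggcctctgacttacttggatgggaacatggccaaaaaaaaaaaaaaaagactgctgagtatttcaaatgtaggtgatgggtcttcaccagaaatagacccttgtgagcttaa
Searched on both strands, AGGTCA occurred at base 23 of the window, counted from 1 at its 5′ end, and in 16.3% of all 32851 promoter windows of this length. CCAAT occurred at base 56, and in 37.4% of all windows. The ETS core GGAA was found 6 times here and in 96.0% of all windows, and the E-box CANNTG 2 times here and in 72.3%. TATAAA and AGATAA, which 13.6% and 11.2% of all windows hold, had no match in these letters. Which Cd36 start the reads came from was not tested. Apart from Lipg, which was not looked up, only Cd36 and Vldlr of the 8 members had an entry in these sequences.

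The lipase axis comprises Lpl, which encodes lipoprotein lipase, Gpihbp1, which encodes its endothelial transporter and anchor, and Lipg, which encodes endothelial lipase, an enzyme acting mainly on phospholipids of high-density lipoprotein. Gpihbp1 (chromosome 15, 75596628 to 75599481) had 58.5, 56.6 and 58.1 CPM in tdTom+ libraries, against 46.7, 50.8 and 59.2 CPM in tdTom- libraries. The highest library was a tdTom- one, and the tdTom+ values all lay inside the tdTom- range. The fold change of 1.11 had a 95% interval of 0.902 to 1.36 (edgeR adjusted p = 0.786), so a Gpihbp1 difference as large as that of Fabp4 lay outside it.

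Lpl (chromosome 8, 68880491 to 68907448) was low, at 129, 110 and 263 counts in tdTom+ libraries, against 162, 118 and 125 counts in tdTom- libraries. That is 11.3, 10.1 and 24.6 CPM in tdTom+, against 15.7, 9.99 and 14.0 CPM in tdTom- libraries. The groups overlapped, and tdTom+ replicate 3 alone set the higher tdTom+ mean. The log2 fold change was 0.21 ± 0.36 (SE; adjusted p by edgeR = 0.91), and it was -0.31 without tdTom+ replicate 3. The 95% interval of the fold, 0.671 to 2.0, was too wide to show whether Lpl differed. Markers of mesenchyme and adipocyte precursors, the lineage of fat cells, which are rich in lipoprotein lipase, had a summed level of 211, 137 and 567 CPM in tdTom+ and 978, 426 and 564 CPM in tdTom- libraries 1 to 3. In each group the library with the most of these markers was also the one with the most Lpl. Across the groups this did not hold. The highest marker sum was in tdTom- replicate 1 and the most Lpl in tdTom+ replicate 3. The part of these markers in the Lpl values was not tested. The libraries numbered 3 also differed from the others in sex-linked transcripts, with 1224 Xist counts in tdTom+ replicate 3 and 571 in tdTom- replicate 3, and at most 8 in the others, and the part of sex in the Lpl values was not tested. All 12 genes of that marker list had reads, but Adipoq and Plin1 had at most 6 and 3 counts in any library. Col3a1 alone had 867 to 5568 counts. Of the 9 tested, 0 passed, and their median log2 fold change was -1.1.

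Lipg was near the floor of detection, with 13, 0 and 5 counts in tdTom+ libraries, against 5, 9 and 4 counts in tdTom- libraries. A floor of 3 counts per library corresponds to 0.254 to 0.336 CPM. No difference was detectable at this depth, and without the filter on low counts the log2 fold change was -0.077 ± 1.4 (SE; adjusted p by edgeR = 0.996).

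The lipoprotein receptor genes differed widely in abundance, with a mean of 87.4 CPM per kilobase of transcript for Scarb1 and 0.844 for Vldlr in tdTom+ cells, and 82.3 for Scarb1 and 0.676 for Vldlr in tdTom- cells. Scarb1 (chromosome 5, 125277087 to 125341094) encodes SR-BI, which takes cholesteryl ester from high-density lipoprotein and moves low-density lipoprotein across endothelium in mice. It had 212, 233 and 217 CPM in tdTom+ libraries, against 196, 215 and 212 CPM in tdTom- libraries. The ranges overlapped, and the fold of 1.06 had the narrowest interval of the tested members, 0.941 to 1.20 (95%, edgeR adjusted p = 0.785). A rise of the size seen for Cd36, Fabp4 or Fabp5 lay outside that interval.

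Vldlr (chromosome 19, 27216484 to 27254231) encodes the very low-density lipoprotein receptor, which binds apolipoprotein E-rich particles and reelin. It had 35, 96 and 89 counts in tdTom+ libraries, or 3.07, 8.79 and 8.32 CPM, against 51, 81 and 39 counts, or 4.95, 6.86 and 4.37 CPM, in tdTom- libraries. A tdTom+ library was the lowest of all and tdTom+ libraries were also the highest, so that the tdTom- range lay within the tdTom+ range. The fold was 1.24 with a 95% interval of 0.616 to 2.51 (edgeR adjusted p = 0.892), which allows a change in either direction.

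**Figure D2:**
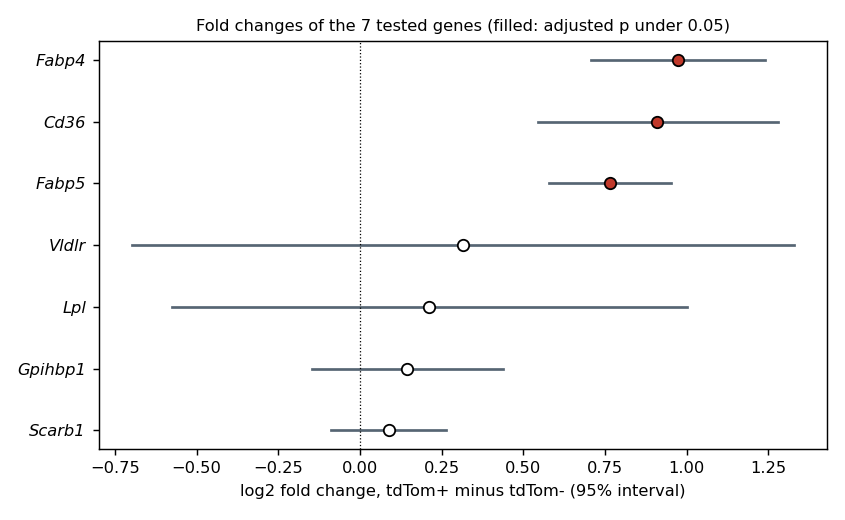
Log2 fold change of tdTom+ minus tdTom- for the 7 tested genes (points) with its 95% interval (lines), filled where the edgeR adjusted p was under 0.05. Fabp4 (0.97), Cd36 (0.91) and Fabp5 (0.77) have intervals clear of 0, Scarb1 (0.088) and Gpihbp1 (0.15) narrow intervals that include 0, and Lpl (0.21) and Vldlr (0.31) wide ones.

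The authors' deposited table, whose fold changes run tdTom- over tdTom+ and were turned round here, gives log2 fold changes of 0.974 for Fabp4, 0.910 for Cd36 and 0.765 for Fabp5, with adjusted p of 3.18e-09, 3.6e-05 and 1.46e-12. In the authors' deposited table the remaining 5 members have adjusted p of 0.876 to 0.999. That table calls 1.39% of its genes with an adjusted p higher in tdTom+ cells.

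Levels were compared between genes after division by the length of each gene's longest coding transcript. Per kilobase, Fabp5 was the most abundant member in both fractions, at 229 ± 16 CPM per kilobase in tdTom+ and 134 ± 2.92 in tdTom- cells (SD, n = 3 each). In tdTom- cells the order below it was Scarb1 (82.3), Fabp4 (45.2), Gpihbp1 (31.6), Cd36 (15.1), Lpl (3.22), Vldlr (0.676) and Lipg (0.149), and the ranges of neighbours in this order did not overlap. In tdTom+ cells Fabp4 averaged 88.8 ± 2.58 and Scarb1 87.4 ± 4.31 CPM per kilobase (SD, n = 3 each), and their ranges overlapped, as did those of Gpihbp1 at 34.9 ± 0.612 and Cd36 at 28.4 ± 6.24. The other neighbours were apart in tdTom+ cells too. Ranked among the 12046 tested genes with a length, Fabp4 stood at percentile 91.7 in tdTom+ and 82.1 in tdTom- cells, and Cd36 at 71.9 in tdTom+ and 57.1 in tdTom- cells. Lpl stood at percentile 28.4 in tdTom+ and 26.1 in tdTom- cells. Its anchor Gpihbp1 stood at percentile 76.9 in tdTom+ and 74.7 in tdTom- cells. The length of the transcripts used by these cells was not measured.

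**Figure D3:**
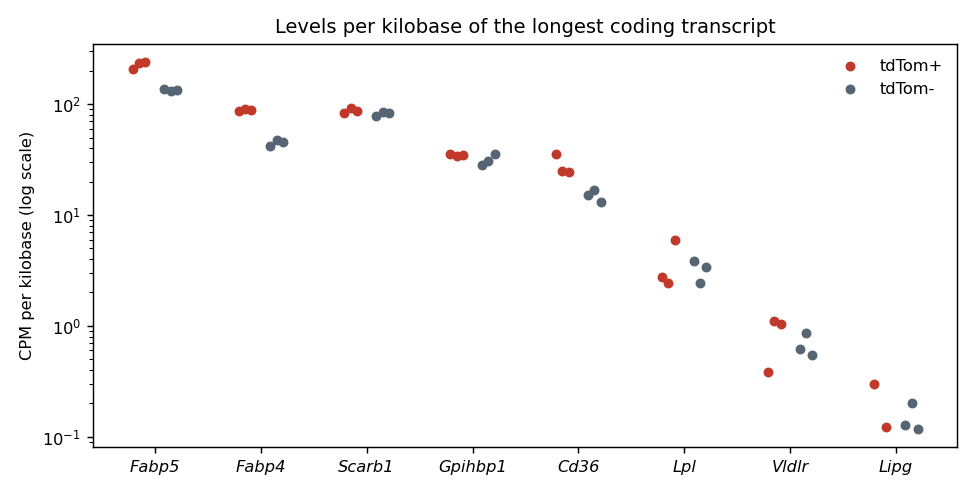
CPM per kilobase of the longest coding transcript (log axis) of the 8 genes, 1 point per library, with tdTom+ left of tdTom- for each gene. Levels run from 239 for Fabp5 in a tdTom+ library down to 0.118 for Lipg in a tdTom- library, and the tdTom+ library with no Lipg count is not drawn.

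Summed over the 8 genes, the libraries held 691.3, 708.0 and 707.9 CPM in tdTom+ and 488.3, 513.1 and 508.7 CPM in tdTom- cells. Fabp5 made up 30.0 to 33.3% of this sum in tdTom+ and 25.3 to 27.7% in tdTom- libraries. Scarb1 made up 30.6 to 32.9% in tdTom+ and 40.2 to 41.8% in tdTom- libraries, and Cd36 made up 11.8 to 17.5% in tdTom+ and 8.85 to 11.2% in tdTom- libraries. Within a library, Scarb1 had 1.75, 2.74 and 2.60 reads per Cd36 read in tdTom+ and 3.82, 3.73 and 4.70 in tdTom- libraries (two-sided exact permutation test, p = 0.1, the smallest that 3 libraries against 3 allow). Fabp5 had 2.69, 2.86 and 2.95 reads per Fabp4 read in tdTom+ and 3.60, 3.02 and 3.25 in tdTom- libraries (two-sided exact permutation test, p = 0.1), and Gpihbp1 had 2.36 to 5.62 reads per Lpl read in tdTom+ and 2.97 to 5.08 in tdTom- libraries (p = 0.9 in the same exact test). Adjusted over these 3 ratios by Benjamini-Hochberg, the p-values were 0.15 for Scarb1 over Cd36, 0.15 for Fabp5 over Fabp4 and 0.9 for Gpihbp1 over Lpl.

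The wider lipid machinery was covered by 9 lists with 201 genes, of which 172 were tested. Over these, 4 rose (2.33%, against 0.769% of all tested genes) and 3 fell (1.74%, against 0.814%), and 165 did not pass. These lists too were chosen with earlier results of these data known, so the contrast with these shares is only a description. The median log2 fold change was -0.014, against -0.00026 over all tested genes. The genes that rose were Stab2, Stab1, Dab2 and Apoe, and those that fell were Lsr, Mfsd2a and Pltp. No gene of cholesterol synthesis (0 of 24), fatty acid synthesis and desaturation (0 of 16), fatty acid oxidation (0 of 21), lipid droplets and lipolysis (0 of 16), the rest of the triglyceride lipase axis (0 of 12) or the regulators of endothelial lipid handling (0 of 21) passed. These 6 lists had median log2 fold changes of -0.062 to 0.033. Over the 9 lists, 23 of the 172 tested genes had an unadjusted edgeR p under 0.05, as did 10.7% of all tested genes. DESeq2 called 8 genes of these lists lower, and 267 of all genes. The number that rose was 2 without tdTom- replicate 1 or 2 and 1 without tdTom- replicate 3.

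Among lipoprotein receptors and their adaptors, 3 of 18 tested genes rose and 1 fell, against 0.769% higher and 0.814% lower of all tested genes. Stab2 and Stab1 encode scavenger receptors of sinusoidal endothelium that clear modified lipoproteins and hyaluronan. Stab2 had 222, 159 and 167 CPM in tdTom+, against 57.9, 51.2 and 65.9 CPM in tdTom- libraries, a log2 fold change of 1.65 ± 0.15 (SE; adjusted p by edgeR = 0.000377). Stab1 had 450, 499 and 557 CPM in tdTom+, against 331, 353 and 352 CPM in tdTom- libraries, with a log2 fold change of 0.54 ± 0.084 (SE; adjusted p by edgeR = 0.0103). Dab2, an endocytic adaptor for receptors of the LDL receptor family, had 433, 270 and 373 CPM in tdTom+ against 202, 199 and 190 CPM in tdTom- libraries, a log2 fold change of 0.86 ± 0.14 (SE; adjusted p by edgeR = 0.0138). The tdTom+ and tdTom- libraries were apart for all 3. Lsr, the lipolysis-stimulated lipoprotein receptor and also a protein of tricellular junctions, fell, with 43.8, 35.6 and 35.6 CPM in tdTom+ against 81.3, 87.4 and 84.9 CPM in tdTom- libraries and a log2 fold change of -1.14 ± 0.13 (SE; adjusted p by edgeR = 0.00187). The calls of Stab1 and Dab2 ended without tdTom- replicate 1 (adjusted p = 0.0722 and 0.0636) or 3 (0.0661 and 0.1), and that of Dab2 also without tdTom- replicate 2 (0.0658).

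Of 20 genes of cholesterol efflux and storage, Apoe rose and Pltp fell. Apoe encodes an apolipoprotein that binds receptors of the LDL receptor family. It had 415, 358 and 407 CPM in tdTom+, against 307, 240 and 270 CPM in tdTom- libraries, a log2 fold change of 0.53 ± 0.099 (SE; adjusted p by edgeR = 0.0255). Its call ended when tdTom+ replicate 1 or 3, or either of tdTom- replicates 2 and 3, was left out (adjusted p of 0.062 to 0.126). Pltp, the phospholipid transfer protein gene, had 58.8, 76.4 and 69.1 CPM in tdTom+, against 121, 129 and 128 CPM in tdTom- libraries, and a log2 fold change of -0.89 ± 0.12 (SE; adjusted p by edgeR = 0.00491). Of 26 genes of fatty acid binding, transport and activation, only Mfsd2a fell and 0 rose. Mfsd2a encodes a transporter of lysophosphatidylcholine with long-chain fatty acids at the blood-brain barrier, and had 17.8, 31.2 and 20.3 CPM in tdTom+ against 49.2, 58.0 and 45.3 CPM in tdTom- libraries (log2 fold change -1.14 ± 0.22, SE; adjusted p by edgeR = 0.0285). Its call ended when any library but tdTom+ replicate 2 was left out (adjusted p of 0.0675 to 0.152).

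In each list with no call, the pair of genes with the smallest p is given. In the lipase axis, Pcsk5, a protease gene, had 30.1, 21.7 and 9.25 CPM in tdTom+ libraries, against 59.8, 49.1 and 36.2 CPM in tdTom- libraries (edgeR adjusted p = 0.137), and DESeq2 called it lower (adjusted p = 0.0103). Pcsk6, a related protease gene, had 50.1 ± 6.79 CPM in the tdTom+ fraction and 36.9 ± 1.43 CPM in the tdTom- fraction (SD, n = 3 each, edgeR adjusted p = 0.262). Among the regulators, Tcf15, which together with Meox2 drives fatty acid uptake genes in mouse heart endothelium, had 41.0, 49.3 and 62.0 CPM in tdTom+ libraries, against 72.9, 63.9 and 88.9 CPM in tdTom- libraries (edgeR adjusted p = 0.198). Ppargc1a, a coactivator gene of oxidative metabolism, was at 0.119 ± 0.133 CPM in the tdTom+ fraction and 1.89 ± 0.494 CPM in the tdTom- fraction (SD, n = 3 each, edgeR adjusted p = 0.141), and DESeq2 called it lower (adjusted p = 0.0463). The remaining pairs, Insig1 and Fdps, Fads3 and Scd2, Etfdh and Etfa, and Dgat2 and Lpin1, had log2 fold changes of -0.46 to 0.74 and edgeR adjusted p of 0.271 to 0.656.

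**Figure D4:**
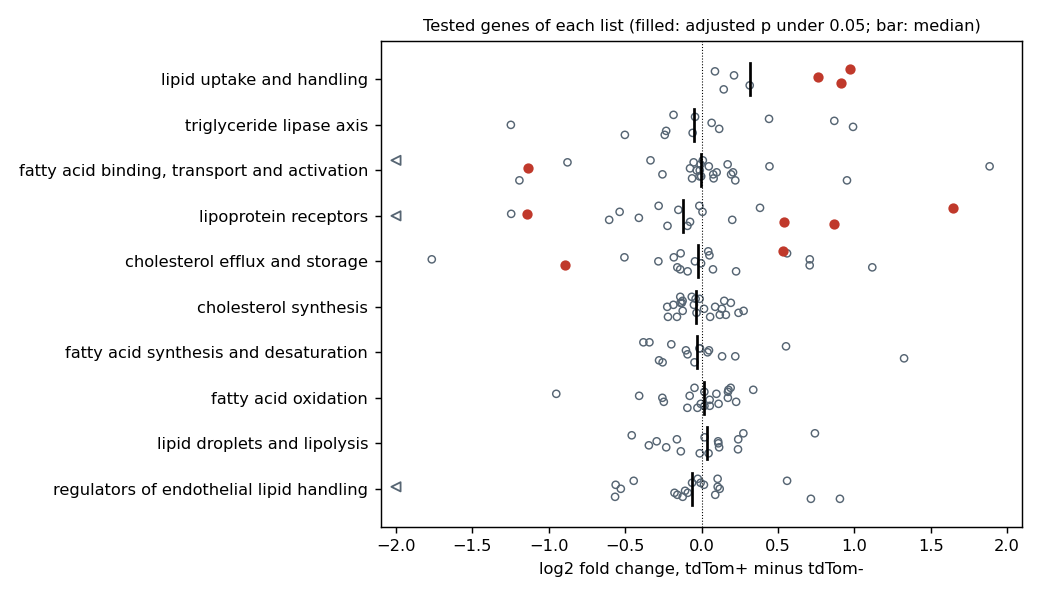
Log2 fold change of tdTom+ minus tdTom- of every tested gene (points) in the members and in the 9 other lipid lists, with each list's median as a bar, filled points for edgeR adjusted p under 0.05, and triangles at the left edge for genes below the axis. In the top row 3 of 7 points are filled, all to the right, and in the 9 lists below 4 filled points lie to the right of 0 and 3 to the left.

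Marker lists of endothelial beds and blood cells went in different directions between the fractions. Among all tested genes, 0.769% were called higher and 0.814% lower. The marker lists were also chosen with earlier results of these data known, so their counts of calls are only a description. Of 9 tested liver sinusoidal markers, a list that also holds Stab1 and Stab2, 8 rose, with a summed level of 2210, 2040 and 2390 CPM in tdTom+ and 918, 846 and 953 CPM in tdTom- libraries. Of 10 brain endothelial markers, a list that also holds Lsr and Mfsd2a, 5 fell (Lsr and Mfsd2a among them) and 0 rose, with sums of 1130, 1260 and 1130 CPM in tdTom+ and 1610, 1650 and 1690 CPM in tdTom- libraries. Of 7 tested markers of heart and muscle capillaries 0 passed, with sums of 316 to 353 CPM in tdTom+ and 296 to 378 CPM in tdTom- libraries, and their median log2 fold change was -0.19. Aqp7 of that list had no count in any library. Of 5 tested lymphatic markers 1 rose, with sums of 1010 to 1300 CPM in tdTom+ and 894 to 1000 CPM in tdTom- libraries, and of 8 endocardial markers 2 fell, with sums of 2340 to 2460 CPM in tdTom+ and 2520 to 2660 CPM in tdTom- libraries. Ccl21a of the lymphatic list had no count. The endocardial sum was mainly Plvap, at 18102 to 21017 counts per library, which did not pass.

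Of 12 tested megakaryocyte and platelet markers 6 rose, against 0.769% of all tested genes. Their sums were 535, 808 and 541 CPM in tdTom+ and 242, 274 and 208 CPM in tdTom- libraries. Much of that sum was Vwf, a gene that endothelium also makes and that did not pass, at 250, 285 and 208 CPM in tdTom+ and 204, 220 and 167 CPM in tdTom- libraries. The other 12 listed genes, a set trimmed after the values were seen, summed to 285, 524 and 333 CPM in tdTom+ and 37.5, 54.5 and 41.0 CPM in tdTom- libraries. Cd36 is also a platelet gene. Both Cd36 and the sum of those 12 genes were higher in every tdTom+ library than in any tdTom- library. Among the tdTom+ libraries, Cd36 was highest in replicate 1, where that sum, 285 CPM, was lowest. Of 9 tested macrophage markers, genes of cells that also make CD36, FABP4 and FABP5, 0 passed. Their sums over all 12 genes were 36.1, 44.2 and 54.3 CPM in tdTom+ and 30.6, 26.7 and 34.5 CPM in tdTom- libraries, so that every tdTom+ sum lay above every tdTom- sum. Erythroid markers had 3 rises among 11, with sums of 295 to 389 CPM in tdTom+ and 228 to 333 CPM in tdTom- libraries. Hba-a1 of that list had no count in any library. Hepatoblast markers had 0 calls among 8, with sums of 161 to 175 CPM in tdTom+ and 210 to 457 CPM in tdTom- libraries. Trf, at 1255 to 1732 counts, and Dlk1, at 248 to 1814, had the most counts of that list, and Alb had at most 116. Heart and skeletal muscle markers had 0 calls among 6, with 28.5 to 41.0 CPM in tdTom+ and 44.9 to 69.0 CPM in tdTom- libraries. Neural markers had 0 among 7, with 256 to 272 CPM in tdTom+ and 280 to 302 CPM in tdTom- libraries. That sum was mainly Nes, at 1852 to 2628 counts per library, while Sox2 had at most 53. The part of these cell types in the values of Fabp4, Fabp5 and Cd36 was not tested.

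**Figure D5:**
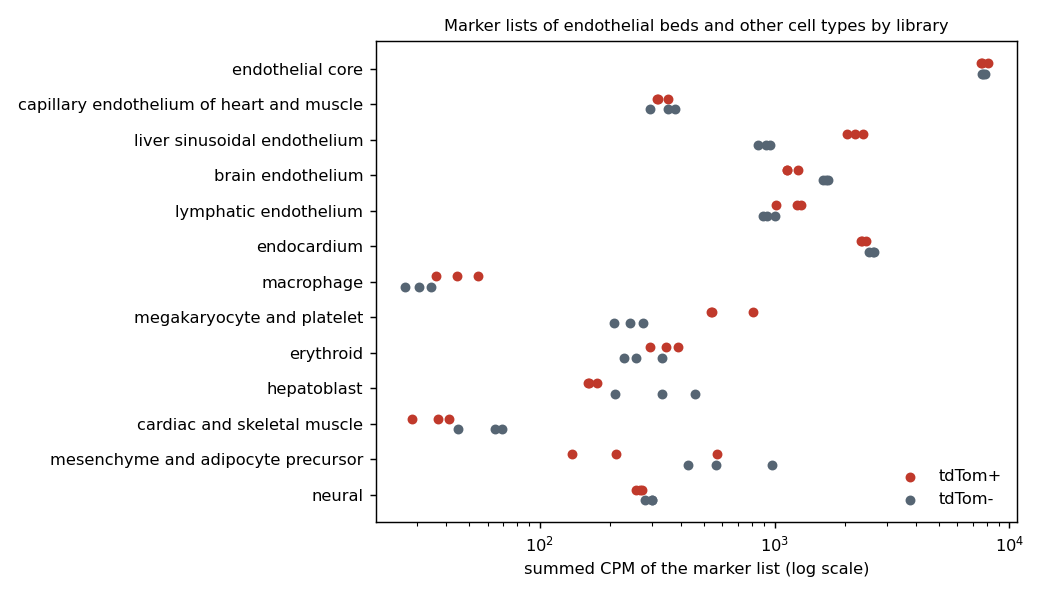
Summed CPM of each marker list (log axis), 1 point per library, with tdTom+ above tdTom- in each row. The tdTom+ sums of liver sinusoidal (2040 to 2390) and megakaryocyte and platelet markers (535 to 808, Vwf included) lie to the right of the tdTom- sums, those of brain endothelium (1130 to 1260) to the left, and the core endothelial sums lie together.

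The genes whose log2 CPM followed each member most closely over the 6 libraries were looked up among the 9943 genes whose log2 CPM averaged 3 or more, as a description. Since both groups enter, a gene that differs between fractions as the member does will score high. Fabp4 and Fabp5 shared the neighbour Fermt3, an integrin activator gene of blood cells (Pearson r = 0.993 with each), which had a log2 fold change of 2.48. The other neighbours were Mll1 and Fbxo9 for Fabp4 and Ctla2a and Irgm2 for Fabp5, at r of 0.993 to 0.998. Cd36 was nearest to Tll1, Dse and Ipo11 (r of 0.991 to 0.996), Gpihbp1 to 2610015P09Rik, Slc11a2 and Tfeb (0.971 to 0.978), and Lpl to Cic, Shb and Atxn2l (0.982 to 0.995). Vldlr was nearest to Junb, Stat5a and A430033K04Rik (0.977 to 0.99), and Scarb1 to Rpf1, Tmem138 and Pfkfb1 (0.983 to 0.987).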

How the data were processed

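RNA of sorted cells was made into cDNA with SMART-seq V4 and into libraries with Nextera XT, per the labels' protocols, a method that keeps neither strand nor molecular identifiers. Per the submitters' processing notes, the authors used featureCounts 1.4.6, STAR 2.5.2b, DESeq2, Picard 2.7.1.1 and Trimmomatic 0.36.4, with the mm10 genome. The deposited table holds the authors' raw counts per gene, log2 fold changes and p-values. Its 6 normalised columns per sample were not used.

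Counts were analysed with edgeR 4.0.16 in R 4.3.3 (filterByExpr with a minimum count of 10, TMM scaling, robust quasi-likelihood test, Benjamini-Hochberg adjustment over 13142 genes, threshold 0.05) without a replicate block. CPM uses TMM-scaled library totals, and each SE was derived from the log2 fold change and its F statistic. The biological coefficient of variation was 23.2%. The procedure was tested on simulated data with the same variation for every gene. It recovered 14.6% of 1.5-fold, 42% of 2-fold and 100% of 4-fold changes, so small changes can go uncalled. The SE of the tested members ran from 0.0794 for Scarb1 to 0.459 for Vldlr, so these rates need not hold for each member. None of the 6 pairs of libraries within a group was a duplicate (mean chi-square 8.18 to 19.7). Alternatives were DESeq2 1.42.0, limma-voom (limma 3.58.1), RLE and upper-quartile scaling, no filter, a stricter filter, the replicate block and leaving out each library. Members and lists were chosen with earlier results of these data known. Genes named were the 8 members, in each other lipid list up to 6 genes past the test or else the 2 with the smallest p, the sorting genes and the 3 genes most like each tested member. Coordinates and transcripts are from GENCODE M21 (GRCm38), and promoters from RefSeq. Of the listed symbols, 3 were matched through RefSeq synonyms. Lipg had no sequence printed.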

Additional observations from a re-analysis of the deposited data

How the results depend on the processing

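Under the 7 settings that kept every library (RLE and upper-quartile scaling, no filter, a stricter filter, DESeq2, limma-voom and the replicate block), Fabp4 (log2 fold change 0.96 to 0.98), Fabp5 (0.75 to 0.77) and Cd36 (0.89 to 0.91) kept their direction and their calls, and Gpihbp1, Lpl, Vldlr and Scarb1 stayed without one. When 1 library was left out, Fabp4 lay between 0.92 and 1.02, Fabp5 between 0.73 and 0.82, Cd36 between 0.71 and 1.0 (adjusted p of 0.0185 to 0.13), Gpihbp1 between 0.072 and 0.24, Lpl between -0.31 and 0.44, Scarb1 between 0.047 and 0.11 and Vldlr between 0.073 and 0.66. Lpl reversed to -0.31 without tdTom+ replicate 3, and the cause was not tested. Such fits called 2 to 3 members higher, 1 to 4 genes of the wider lists higher and 2 to 3 lower, and 37 to 97 of all genes higher and 25 to 92 lower, with fewer samples in each. DESeq2 called 8 wider lipid genes lower, and 217 of all genes higher and 267 lower, whereas limma-voom called 69 of all genes higher and 79 lower. With the replicate number as a block, 5 wider lipid genes and 167 of all genes were called lower, Pcsk5 among them (log2 fold change -1.35, adjusted p = 0.00564). Same-numbered libraries correlated at 0.105, 0.0892 and 0.161 in their deviations from the group means, and each library correlated best with its own number, a hint from the data and not from the design. Both libraries numbered 3 held Xist (1224 counts in tdTom+ and 571 in tdTom-) and few Ddx3y counts (12 in tdTom+ and 2 in tdTom-), while those numbered 1 and 2 held 1204 to 1537 Ddx3y counts. Depth limits Lipg, and the spread between libraries limits Lpl and Vldlr.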
